A study of Mus musculus with 6 samples.

Results

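Tumours treated with KS100 together with an anti-PD-1 antibody were compared with control tumours by 3′-end RNA sequencing. B16F10, a melanin-producing mouse melanoma line, had been injected under the skin of 8-week-old female C57BL/6J mice, and the mice were treated daily until control tumours measured 2000 mm3. Of the 6 libraries in the study, 1 per treatment, those compared here came from mice given KS100 and anti-PD-1 (the combination pool) and mice given DMSO and control IgG (the control pool). The anti-PD-1 pool (DMSO and anti-PD-1) and the KS100 pool (KS100 and control IgG) are set beside them, and the pools given AZD5363 and MK1775 with control IgG or with anti-PD-1 are used where all pools are shown. RNA was extracted from tumours combined within each treatment. There is therefore 1 pool a side, no replicate check and no p-value, and every 95% interval below covers counting error only. A gene was tested where it had at least 20 counts in the combination pool or in the control pool. This held for 7948 of 43629 genes. Of these, 7917 entered through the control pool alone, 26 through both pools and 5 through the combination pool alone.

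KS100 is an inhibitor of aldehyde dehydrogenases, enzymes that oxidise reactive aldehydes to acids and that are known for high levels in therapy-resistant tumour cells. PD-1 is a receptor that restrains activated T cells, and antibodies against it release that restraint. In melanoma cells the transcription factor Mitf drives the enzymes and structural proteins of the melanosome, the organelle in which melanin is made. The combination pool carried melanoma markers: 47 counts of Dct, 4 each of Tyrp1 and Mlana, 3 of Pmel, 2 of Sox10 and 1 of Mitf. Tyr, the enzyme that starts melanin synthesis, was at 0 counts there and at 53 in the control pool.

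The combination pool held 25521 counts and the control pool 1591673. A gene with no count was set at 3 counts where a fold value is given for it. That level was 118 CPM (reads per 1000000 counted) in the combination pool and 1.88 CPM in the control pool. Such fold values are not interval limits, and the interval of each such gene reaches nearer to 1. After scaling by TMM, a method that sets pools level on the bulk of their genes, 88.5 control counts corresponded to 1 combination count. The combination pool spread its few counts thinly: it detected 9373 genes, of which 53.5% had a single count, against 13368 genes and 10.7% in the control pool. Protein-coding genes held 71.2% of its counts against 98.5%, lincRNA genes (long non-coding RNAs between genes) 8.79% against 0.276% (3.73% against 0.268% without the gene Gm26870), and processed pseudogenes 5.44% against 0.332%. A further 8817 protein-coding genes had no count in either DMSO pool, and they took 9.17% (exact interval 8.81 to 9.53%) of the combination pool. Their share was 4.47% with KS100 and IgG, 0.717% with AZD5363, MK1775 and IgG, and 0.36% when anti-PD-1 was added to those inhibitors. The part of these values in the results that follow was not tested.

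Genes of pigment, the nuclear-encoded respiratory chain and the ribosome were among those lower in the combination pool. All 6 mitochondrially encoded protein genes tested were higher, and the genes called higher were longer than those called lower. A gene was called higher or lower where it differed by a scaled ratio of 2 or more, up or down, with the interval wholly beyond 1.5-fold, with 3 counts put in place of a 0. By this rule 365 of the 7948 genes (4.59%) were higher and 210 (2.64%) were lower, 7.23% in either direction. This split depends on the scaling: it was 243 higher and 398 lower with library totals, 248 and 386 with TMM from all genes without a filter, and 90 and 1247 with TMM from the 2 pools alone. Those scalings multiply every ratio by 0.705, 0.716 and 0.355, so directions are relative to the scaling used.

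Depth set what could be seen. The combination pool had 0 counts for 3845 of the tested genes, 1 count for 1850, between 2 and 4 for 1742 and at least 5 for 511. A gene needed 532 control counts to be called lower even at 0 combination counts, which 504 genes had, and 210 of these 504 (41.7%) were called. Of the genes called lower, 59 had 0 counts. Genes called higher had a median of 5 combination counts (lowest 3) and 40 control counts, and 312 of the 365 had fewer than 10. The median log2 ratio of all tested genes was -2.48, which follows the many genes at 0, whereas their summed counts gave a ratio of 0.893 (0.879 to 0.907). That sum includes the mitochondrially encoded genes and Gm26870. Among the 504 genes deep enough to be called lower, the median log2 ratio was -1.88. At the lower edge of the test, 47 of the 105 genes with exactly 20 control counts had a combination count, as did 42 of the 118 genes with 19, which were not tested. Just outside on the other side were Cd84 and 9430098F02Rik with 17 combination counts each and Gm28370 with 16.

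**Figure D1:**
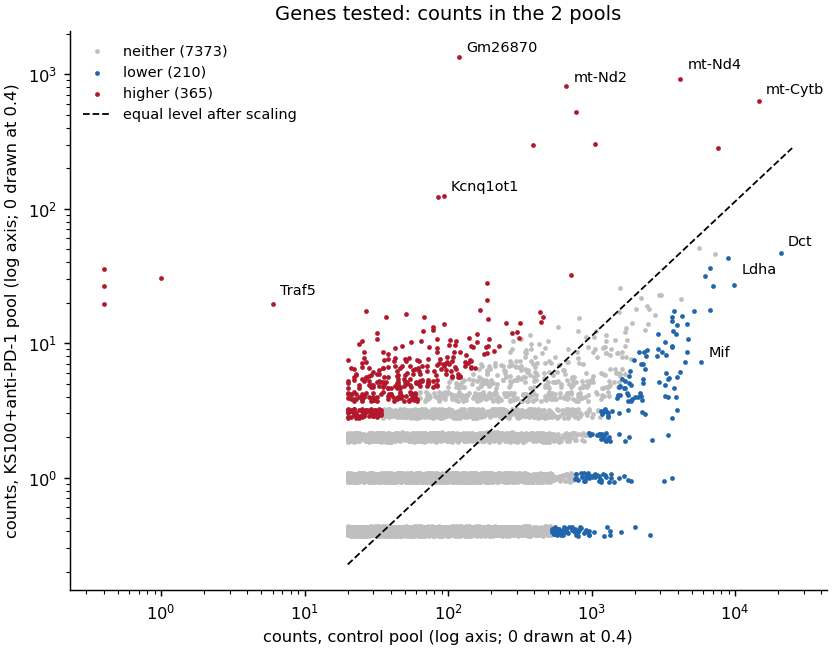
Counts of each tested gene in the control pool (x axis) and the combination pool (y axis, KS100+anti-PD-1), both on log axes with 0 drawn at 0.4 and points moved slightly at random along the y axis. Red points are the 365 genes called higher, blue points the 210 called lower, and the dashed line marks an equal level after scaling.

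Pigment genes were lower as a group. Of 23 genes of melanin synthesis and the melanosome, 20 were tested, 10 were called lower and none higher, and 12 were deep enough to be called lower. Their summed counts were 88 in the combination pool against 45142 in the control pool, a scaled ratio of 0.173 (0.138 to 0.213), and their median log2 ratio was -3.03. Dct, which converts dopachrome on the way to brown-black melanin, had 20773 control, 11518 anti-PD-1, 134 KS100 and 47 combination counts. The control level would have given 235 counts, so the ratio was 0.200 (0.147 to 0.266). Its ratio in the KS100 pool was 0.298, and the combination pool against the KS100 pool gave 0.673 (0.472 to 0.945), which was not called.

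Mitf had 1873, 1272, 20 and 1 counts in the control, anti-PD-1, KS100 and combination pools, a ratio of 0.0473 (0.0012 to 0.264) against control. It was also called lower against the KS100 pool, at 0.0959 (0.00231 to 0.6), where it was tested only through its 20 KS100 counts. Pmel, which forms the fibrils of the melanosome, had 3663, 1580, 10 and 3 counts in the same order and a ratio of 0.0725 (0.0149 to 0.212). Tyrp1, an enzyme that stabilises tyrosinase, had 3393, 1546, 26 and 4 counts (0.104, 0.0284 to 0.267), and Gpnmb, a melanosome membrane protein, 3383, 2192, 35 and 5 (0.131, 0.0425 to 0.306). In all 5 of these genes the control and anti-PD-1 pools stood above both KS100 pools in CPM. The membrane transport proteins Slc24a5 (0.112), Slc45a2 (0.148) and Trpm1 (0.291), the antigen Mlana (0.160) and Tspan10 were the other genes called. Tspan10 was at 0 counts against 574, or 2.16-fold lower with 3 counts in place of the 0. Its interval reached a ratio of 0.571. The calls of Trpm1 and Tspan10 ended when pools were scaled by the totals of nuclear protein-coding genes. In pooled tumours, fewer cells of a type and less RNA per cell cannot be told apart. Relative to control the list stood at 0.329 with KS100 and 0.806 with anti-PD-1, and the combination pool against the KS100 pool gave 0.524 (0.409 to 0.666).

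**Figure D2:**
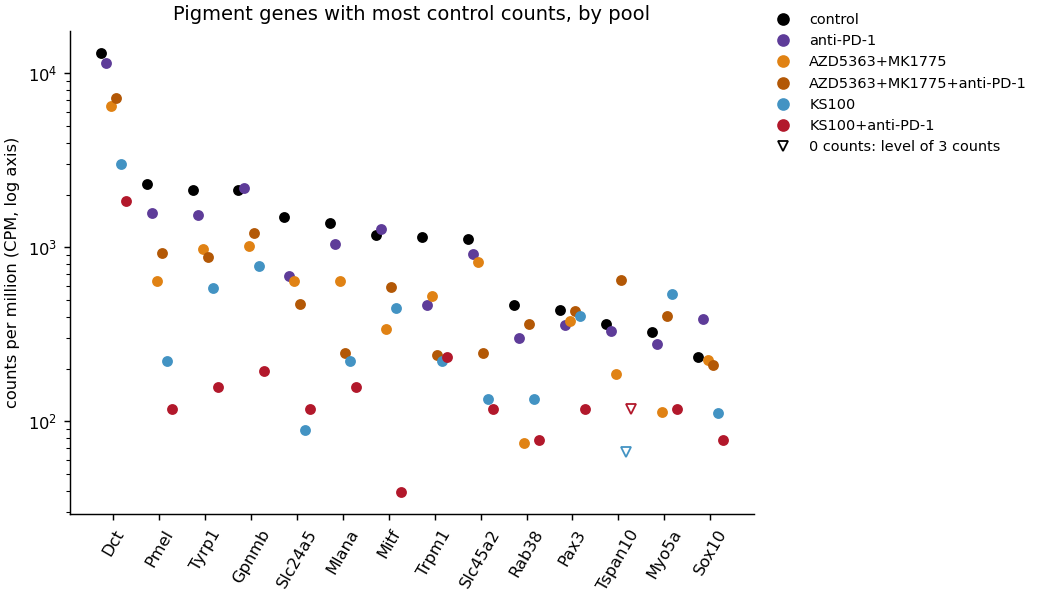
CPM (log axis) of the 14 tested pigment genes with most control counts in each of the 6 pools, 1 point a pool; open triangles stand at the level of 3 counts where a pool had none. Dct runs from 13051 CPM in the control pool to 1842 CPM in the combination pool.

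Genes for the respiratory chain differed by the genome that carries them. The chain's complexes hold subunits encoded in the nucleus and a small set encoded on mitochondrial DNA. All 47 nuclear subunit genes in the list were tested, 13 were called lower and none higher, and 22 were deep enough to be called lower. Their 69 combination counts against 39532 control counts gave a ratio of 0.155 (0.12 to 0.196). The KS100 pool stood at 0.462 of control, and the combination pool against the KS100 pool gave 0.334 (0.255 to 0.433). Of the cytochrome c oxidase subunits, Cox6c had 3917, 1585, 25 and 3 counts in the control, anti-PD-1, KS100 and combination pools (0.0678, 0.014 to 0.198). Cox7b had 2616, 1176, 27 and 2 (0.0677, 0.00819 to 0.245). Cox7a2 had 2013, 931, 13 and 0, or 7.58-fold lower with 3 counts in place of the 0. Atp5g3, of the proton-conducting ring of ATP synthase, had 3733, 2052, 37 and 5 (0.119, 0.0385 to 0.277). In each of these the combination pool was the lowest of the 4 pools in CPM. The call of Uqcrb, a subunit of the cytochrome bc1 complex, ended with DESeq2 size factors and with nuclear protein-coding totals.

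Mitochondrially encoded genes were higher. Of the 13 protein genes, 6 were tested and all 6 were called higher, with 2940 combination counts against 28180 for the 13 genes, a ratio of 9.24 (8.89 to 9.59), or 15.1 without mt-Cytb. The KS100 pool had 9.25, and the combination pool against it 0.998 (0.955 to 1.04), whereas the anti-PD-1 pool had 0.679 of control. As a share of all counts the 13 genes held 1.77% of control and 11.5% of the combination pool. They held 12.6% with KS100, 10.9% with AZD5363, MK1775 and IgG, and 5.19% when anti-PD-1 was added to those 2 inhibitors. The equal sum against the KS100 pool hid opposite single genes. mt-Nd2, a subunit of complex I (chrM:3914-4951, GRCm38), had 664, 269, 406 and 767 counts in the control, anti-PD-1, KS100 and combination pools, a ratio of 102 (92 to 114) against control and 3.62 (3.21 to 4.1) against the KS100 pool. mt-Nd5, of the same complex (chrM:11742-13565), had 389, 197, 164 and 274 counts (62.3, 53.2 to 73) and was 3.21 (2.63 to 3.91) times its KS100 level. mt-Nd1, also of complex I (chrM:2751-3707), had 7566, 2645, 1652 and 263 counts (3.08, 2.71 to 3.48), and against the KS100 pool it was lower at 0.305 (0.267 to 0.348). mt-Nd4 (chrM:10167-11544), with 959 counts, stood at 20.4 (19 to 21.9) times control. mt-Cytb (chrM:14145-15288), with 628 counts, stood at 3.80 (3.5 to 4.11). mt-Co1, with 31 counts, stood at 3.81 (2.57 to 5.45) and was called lower against the KS100 pool, at 0.381 (0.251 to 0.563). The calls of mt-Cytb, mt-Nd1 and mt-Co1 ended with TMM from the 2 pools alone.

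These ratios can be set beside a feature of the transcripts. The library kit primes on runs of A, and all of these genes held runs of A within the transcript. They are listed below by the length of the longest run, which is not the order of their ratios throughout. The stretch around the longest run in each gene is printed 5′ to 3′ on the coding strand, from the GENCODE M21 transcripts on GRCm38, with the run in capitals:
mt-Nd2: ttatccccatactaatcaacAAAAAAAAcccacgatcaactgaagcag
mt-Nd5: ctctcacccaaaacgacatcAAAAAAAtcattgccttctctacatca
mt-Nd4: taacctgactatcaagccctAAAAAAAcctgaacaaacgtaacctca
mt-Co1: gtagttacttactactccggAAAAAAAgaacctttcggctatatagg
mt-Nd1: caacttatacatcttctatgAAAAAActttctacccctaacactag
mt-Cytb: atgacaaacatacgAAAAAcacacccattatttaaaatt
Runs of 6 or more A numbered 3 in mt-Nd2, 2 each in mt-Nd5 and mt-Nd4, 1 each in mt-Co1 and mt-Nd1 and none in mt-Cytb. With a longest run of 7, as in mt-Nd5 and mt-Nd4, mt-Co1 stood at 3.81. mt-Cytb, with a longest run of 5, stood at 3.80, above mt-Nd1 at 3.08 with a run of 6. The 2 mitochondrial ribosomal RNAs were higher as well. mt-Rnr2 had 780, 231, 1236 and 484 counts in the 4 pools in the same order (54.9, 48.9 to 61.6) with a longest run of 7 A, and mt-Rnr1 had 1061, 278, 762 and 291 (24.3, 21.3 to 27.7) with a longest run of 5. Gm42418, annotated as a lincRNA and grouped here with ribosomal RNA, had 85, 59, 245 and 123 counts in that order (128, 96.4 to 171). It was also called higher in the KS100 pool, at 133 times control. AZD5363 and MK1775 gave 167 counts of it with IgG and 43490 with anti-PD-1. Gm26917, of the same group, had 169, 112, 43 and 1 counts in the 4 pools (0.524, 0.0132 to 2.96) and was not called against control. Where in a transcript the reads lie was not analysed here, so a tie between runs of A and these counts was not tested. Nuclear copies of mitochondrial sequence could have taken or lent reads.

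**Figure D3:**
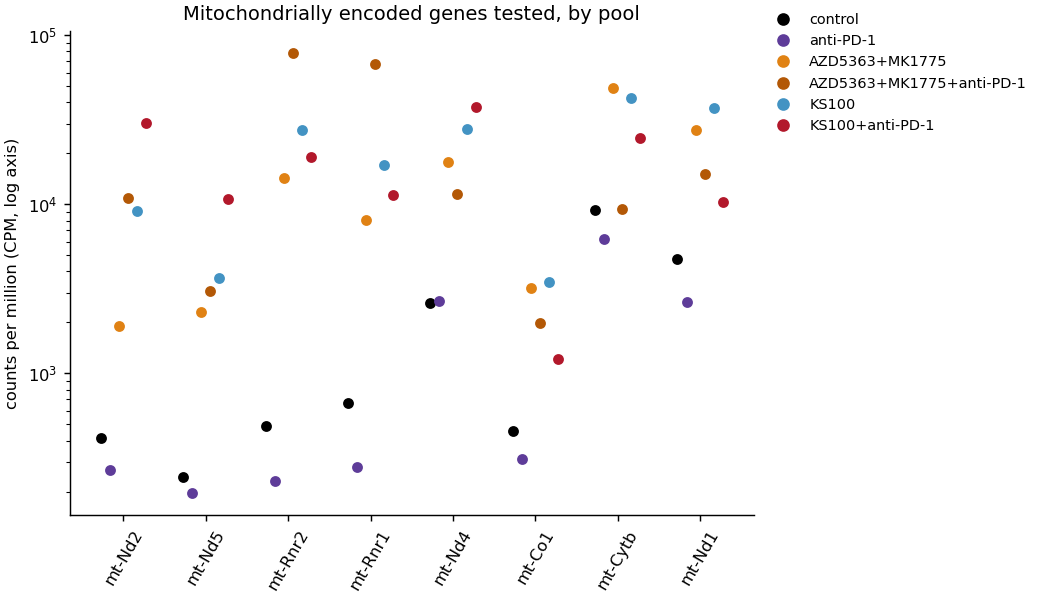
CPM (log axis) of the 8 tested mitochondrially encoded genes in each of the 6 pools, 1 point a pool, ordered by their ratio in the combination pool. The combination pool is the highest for mt-Nd2, mt-Nd5 and mt-Nd4 and lies under the KS100 pool for the other 5.

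With the scaling used, ribosomal protein genes had summed levels below control in the combination pool and above it in the KS100 pool. Of 45 proteins of the large subunit, 44 were tested, 17 were called lower against control and none higher, with 36 deep enough. Of 32 of the small subunit, all were tested, 12 were called lower and none higher, with 28 deep enough. The called shares of genes deep enough, 47.2% and 42.9%, were near the 41.7% of all such genes. The summed ratios to control were 0.369 (0.327 to 0.415) and 0.360 (0.315 to 0.410). The same lists stood at 1.17 and 1.41 of control with KS100, and at 0.99 and 1.01 with anti-PD-1. As shares of all counts, the large subunit list was 3.85% with KS100, below its 4.26% in control. The small subunit list was 3.87% against 3.56%. The combination pool against the KS100 pool gave 0.315 (0.277 to 0.357) and 0.256 (0.222 to 0.293). Rpl37 had 3208, 1936, 169 and 1 counts in the control, anti-PD-1, KS100 and combination pools, a ratio to control of 0.0276 (0.000699 to 0.154), and 0.0114 (0.000286 to 0.0641) against the KS100 pool, where it was 2.43 times control. Rps29 had 4488, 2626, 122 and 7 (0.138, 0.0555 to 0.285). Rps13 had 3622, 2083, 136 and 9 (0.220, 0.1 to 0.418), and Rplp1, of the ribosomal stalk, 8926, 6961, 171 and 42 (0.417, 0.3 to 0.563). Ribosomal protein genes have many processed pseudogenes, which took a larger share of the combination pool than of control, so single values are uncertain. The calls of Rpl7, Rpl8, Rpl11 and Rpl32 ended with DESeq2 size factors and with nuclear protein-coding totals, and those of Rpl13, Rpl22, Rpl23, Rps9 and Rps12 with the latter alone.

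Translation factors had a summed ratio of 0.389 (0.309 to 0.482). Of 26 tested genes 3 were called lower and none higher, and these were 30% of the 10 deep enough, under the 41.7% of all such genes. Eef2, which moves the ribosome along the message, had 1807 control, 55 KS100 and 1 combination counts (0.0490, 0.00124 to 0.273). Eef1b2, the exchange factor that reloads the elongation factor carrying tRNA, had 4624, 86 and 8 (0.153, 0.0661 to 0.302). The third, Eif4g2, lost its call with nuclear protein-coding totals. Gas5, a non-coding host gene of small nucleolar RNAs, had 1372, 24 and 1 counts (0.0645, 0.00163 to 0.36).

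Other abundant housekeeping groups were lower too, with no member called higher in the lists below. Counts are to be read against the 41.7% of all genes deep enough that were lower. The median log2 ratio of all genes deep enough was -1.88, so a level below control was not particular to these lists. In the lysosome list 5 of 26 tested genes were lower, with 7 deep enough and a summed ratio of 0.204 (0.14 to 0.289). Psap, the precursor of lipid-degrading saposins, was at 0 counts against 1607, or 6.05-fold lower with 3 counts in place of the 0. Cd63, a lysosomal membrane protein, had 4 against 3251 (0.109, 0.0297 to 0.279). Atp6v1f, a subunit of the pump that acidifies lysosomes, lay outside the list and was at 0 against 2568. That was 9.67-fold lower with 3 counts in place of the 0, and its interval reached a ratio of 0.127. Endoplasmic reticulum chaperones were lower in 3 of 16 genes, 6 of them deep enough (0.261, 0.183 to 0.36), among them Hspa5 with 5 counts against 2929 and Pdia6 with 4 against 3888. The proteasome was lower in 6 of 28, with 9 deep enough (0.278, 0.199 to 0.377), with Psma2 at 1 count against 1438. Ubb, a ubiquitin gene, had 1 against 3659 (0.0242, 0.000612 to 0.135).

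In glycolysis 3 of 15 genes were lower, with 5 deep enough (0.305, 0.229 to 0.397). Ldha, which makes lactate, had 9832, 7597, 133 and 29 counts in the control, anti-PD-1, KS100 and combination pools (0.261, 0.175 to 0.375), and Pkm had 2 against 1268. Redox and ferritin genes were lower in 4 of 21, with 6 deep enough (0.273, 0.193 to 0.375), with Prdx1 at 15 against 4247 and Fth1 at 6 against 2354. The cytoskeleton list was lower in 5 of 24, with 11 deep enough, a share of 45.5% (0.285, 0.219 to 0.366), with Actb at 12 against 3715. Cytosolic and mitochondrial chaperones were lower in 3 of 19, which is 27.3% of the 11 deep enough, and had a higher sum than these lists, 0.557 (0.468 to 0.657). Within them Hsp90aa1, the stress-inducible HSP90, had 27 counts against 1580 (1.51, 0.994 to 2.21), and Cct7, of the chaperonin that folds actin and tubulin, had 3 against 2241 (0.118, 0.0244 to 0.347). Cholesterol synthesis had no call among 20 tested genes, of which 4 were deep enough, at a summed ratio of 0.274 (0.16 to 0.44). The calls of Txn1, Lgals1, Cct8 and Aldoc ended with DESeq2 size factors and with nuclear protein-coding totals, and those of Ctsd and Npc2 with the latter alone.

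**Figure D4:**
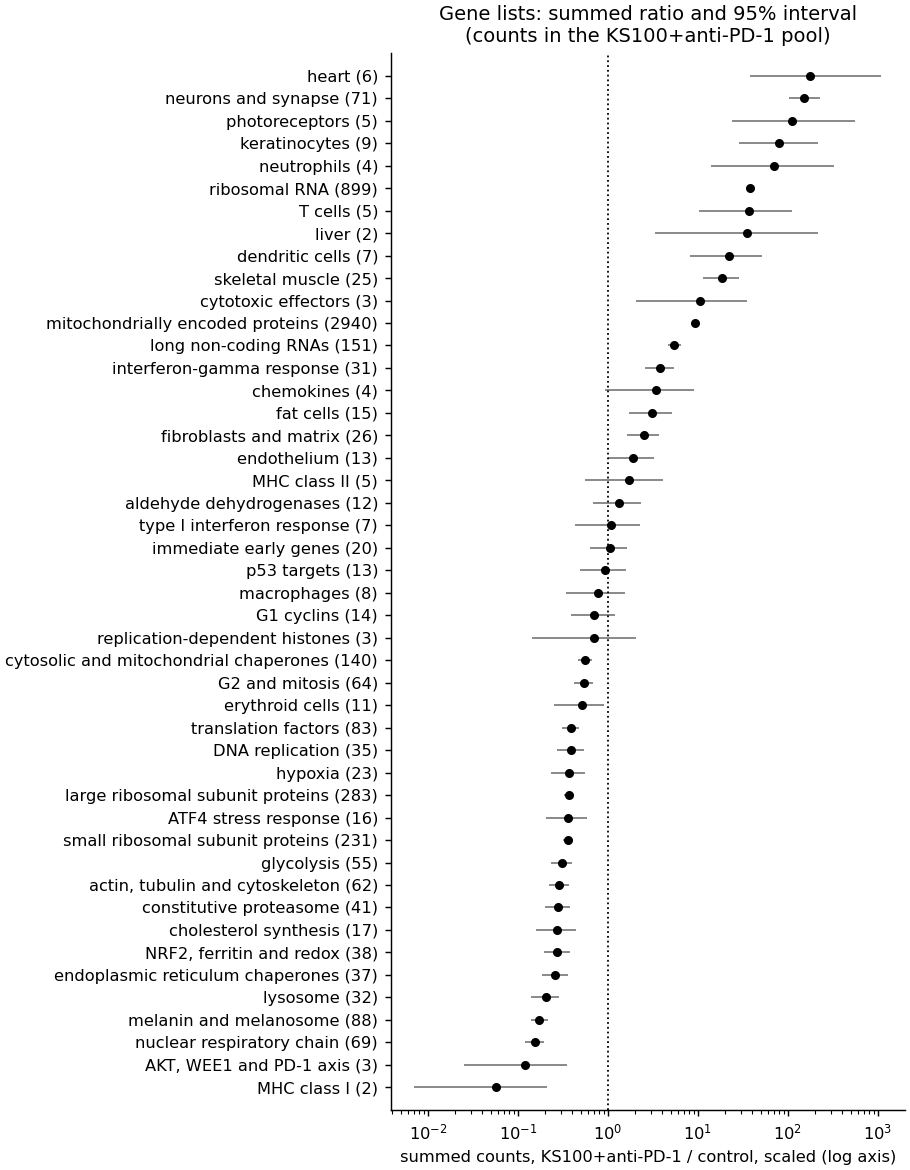
Scaled ratio of summed counts, combination pool over control pool (log x axis), with its 95% interval for each gene list with a combination count; the number after a name is that count. Of all 47 lists, 17 intervals lie above 1, 20 below and 10 span it. With TMM from the 2 pools alone, fibroblasts and matrix turn to 0.891 and endothelium to 0.676.

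Antigen presentation and interferon genes went different ways. MHC class I molecules show peptides to CD8 T cells. Their list, with peptide loading and immunoproteasome genes, had 2 combination counts against 3077 control counts where the control level would have given 34.8, a ratio of 0.0575 (0.00696 to 0.208). Of 14 tested members 2 were called lower, B2m and Calr, which were also the 2 deep enough. B2m, the MHC class I light chain, had 1315, 704, 9 and 1 counts in the control, anti-PD-1, KS100 and combination pools (0.0673, 0.0017 to 0.376). Calr was at 0 against 628, or 2.36-fold lower with 3 counts in place of the 0. H2-K1 and H2-D1, the heavy chains, were at 0 against 322 and 212 and could not be called. With KS100 the list stood at 0.255 of control, with anti-PD-1 at 0.930. Genes induced by interferon gamma had 31 counts against 717 (3.83, 2.58 to 5.48). Gbp7, a guanylate-binding protein, had 42, 15, 0 and 4 counts in the same order (8.43, 2.20 to 23.2) and was called higher, a call that ended with TMM from the 2 pools alone. Irf1, a transcription factor of the same response, was at 0 against 144, and Igtp, a GTPase, at 0 against 63, which could not be called. The type I interferon list had 7 counts against 570 (1.09, 0.435 to 2.25).

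The targets of the treatments were near or under the limit of detection. Of 19 aldehyde dehydrogenase genes, 9 were tested and none was called or could have been called lower. They had 12 counts against 803 (1.32, 0.681 to 2.32). Aldh1a3, not tested at 2 control counts, held 7 of the 12, against 4 with anti-PD-1 and 3 with KS100. Aldh2, the mitochondrial enzyme, had 309, 252, 2 and 1 counts in the control, anti-PD-1, KS100 and combination pools (0.286, 0.00723 to 1.61). Aldh1a1 had 1 combination count and 0 control counts, and Aldh3a1 had none in either. Pdcd1, which encodes PD-1, was at 0 in both pools, and Cd274, which encodes its ligand PD-L1, had 1 against 6. The kinase gene Akt1, not a target of KS100 or anti-PD-1, was deep enough and called lower. It was at 0 against 909, or 3.42-fold lower with 3 counts in place of the 0, and had 9 counts in the KS100 pool.

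Cell cycle lists showed calls in both directions. Over all tested genes 4.59% were higher, and 41.7% of those deep enough were lower. Of 24 genes of G2 and mitosis, all tested, 2 were higher and 2 lower, with a summed ratio of 0.537 (0.414 to 0.687). The 2 lower were 33.3% of the 6 deep enough. Cdk1, the kinase that starts mitosis, had 1 count against 1096 (0.0808, 0.00204 to 0.451), and Plk1, a kinase of the spindle, 5 against 1879 (0.236, 0.0764 to 0.551). Mki67, a coat protein of mitotic chromosomes, had 12 against 302 (3.52, 1.80 to 6.24), and Cenpf, a kinetochore protein, 10 against 194 (4.56, 2.15 to 8.57). DNA replication genes were lower in 2 of 24, with 3 deep enough, and higher in 1 (0.386, 0.269 to 0.537). Rrm2, which makes deoxynucleotides, had 3 against 1169 (0.227, 0.0468 to 0.666), and Gins1, of the replicative helicase, 5 against 46 (9.62, 2.98 to 24.1). The call of Mki67 ended with library totals and with both other TMM scalings, those of Cenpf and Gins1 with TMM from the 2 pools alone, and that of Rrm2 with DESeq2 size factors and nuclear protein-coding totals.

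Markers of immune cells had few counts, and their summed ratios to control were mostly above 1. The T cell list had 5 counts against 12 (36.9, 10.2 to 112) and no tested member. Cd3d, Cd3e, Cd3g, Cd8a, Foxp3 and Trac were at 0 in the combination pool, Cd8b1 and Cd4 had 1 count each and Trbc1 had 2. B cell genes had none. Cytotoxic effectors had 3 counts against 25 (10.6, 2.05 to 34.8), with Gzma, Gzmb and Ifng at 0. Neutrophil genes had 4 against 5 (70.8, 14.1 to 329), of which Cxcr2 held 3, and dendritic cell genes 7 against 28 (22.1, 8.16 to 51.8), of which Siglech held 4 and Xcr1 3. Genes silent in both DMSO pools took 9.17% of the combination pool, and their part in these ratios was not tested. Macrophage genes had 8 counts against 903 (0.784, 0.338 to 1.55), with Adgre1, Cd68, C1qa and Lyz2 at 0. Apoe, of that list, was at 0 against 604, or 2.27-fold lower with 3 counts in place of the 0. Its call ended with nuclear protein-coding totals.

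Stromal markers rested on few counts. Fibroblast and matrix genes had 26 counts against 916 (2.51, 1.63 to 3.71), with Col1a1 (6 against 106), Col3a1 (3 against 29) and Col6a3 (4 against 32) called higher, though the list turned to 0.891 with TMM from the 2 pools alone. Its members with most control counts had ratios under 1 and were not called: Sparc had 1 against 323 (0.274, 0.00692 to 1.54) and Fn1 2 against 278 (0.637, 0.0767 to 2.32). With KS100 their summed ratio was 2.37, with anti-PD-1 it was 5.30. Endothelial genes had 13 against 604 (1.91, 1.01 to 3.28), 0.676 with the same scaling, and Pecam1, an adhesion molecule of vessel walls, had 29, 45, 7 and 6 counts in the control, anti-PD-1, KS100 and combination pools (18.3, 6.22 to 44.9). Other endothelial markers, Cdh5, Egfl7 and Eng, were at 0. In the fat cell list Fabp4 was called higher (7 against 145), with Lpl at 0. The calls of Col1a1, Col3a1 and Fabp4 ended with library totals and with both other TMM scalings, and that of Col6a3 with TMM from the 2 pools alone.

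Markers of other tissues were also counted. The list of neuronal and synaptic genes had 41 control, 51 anti-PD-1, 130 KS100 and 71 combination counts, a ratio to control of 153 (103 to 231), or 669 without Ptprd, and 1.05 (0.773 to 1.41) against the KS100 pool. Lrp1b and Nrxn3, large genes of synapses and cell surfaces, had 8 counts each in the combination pool and 1 and 0 in control. Heart genes had 6 counts against 3 and keratinocyte genes 9 against 10. Krt5, Krt14, Alb and Myh6, which define skin keratinocytes, liver and heart, were at 0 in the combination pool. Skeletal muscle genes had 25 counts against 120 (18.4, 11.5 to 28.6), of which the giant gene Ttn held 14, while Acta1 and Ckm were at 0. In 2 deeper pools the list had 900 counts with anti-PD-1 and 3499 with AZD5363, MK1775 and anti-PD-1. These were 0.0898% and 1.03% of all counts, against 0.098% in the combination pool and 0.00754% in control. The combination pool against the anti-PD-1 pool gave 1.59 (1.02 to 2.37). Acta1, the actin of muscle fibres, had 362 and 492 counts in those 2 pools against 52 in control.

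The gene with most counts in the combination pool was Gm26870, annotated as a lincRNA on the minus strand of chr9:3000282-3038313 (GRCm38, GENCODE M21). Its 1291 counts there compare with 120 in control, 0 with anti-PD-1 and 4 with KS100. AZD5363 and MK1775 gave 2 with IgG and 14 with anti-PD-1. That is 5.06% (4.79 to 5.33%) of the combination pool's counts and 952 (789 to 1158) times the control level. The other 5 pools had at most 120 counts. Against the KS100 pool the ratio was 619 (241 to 2276), but there the gene was tested only because it was high in the combination pool and had to differ. Its 3 annotated transcripts repeat themselves: shifted by 234 bases, Gm26870-202 matched itself at 95.9% of positions, Gm26870-201 at 81.5% and Gm26870-203 at 78.3%. At the best other offset they matched at 60.9%, 58.6% and 57.6%. The mouse major satellite, a repeat of the heterochromatin beside centromeres, is known to have a unit of this length. The opening 234 bases of that transcript are shown 5′ to 3′ as an example of the repeat in this gene, with each of their 11 runs of 4 or more A in capitals:
Gm26870-202: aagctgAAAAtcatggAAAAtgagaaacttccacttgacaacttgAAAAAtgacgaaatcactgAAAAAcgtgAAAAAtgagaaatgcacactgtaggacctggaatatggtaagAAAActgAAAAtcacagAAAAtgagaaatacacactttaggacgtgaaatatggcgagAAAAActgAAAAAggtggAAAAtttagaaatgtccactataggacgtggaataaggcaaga
Another 12 genes share this repeat, taken as at least 20% of a transcript's 15-base words, on either strand, found in Gm26870. They had 856 control, 0 anti-PD-1, 7 KS100 and 13 combination counts, a ratio to control of 1.34 (0.713 to 2.31). Most of the control counts lay in Gm10800, with 597 against 7 in the combination pool (1.04, 0.415 to 2.15). Of the 12, 9 overlap Gm26870 on the other strand, with 1 combination count among them. The treatment of reads with several matches is not given in the sources used here, so counts within this family are uncertain. Gm26870 was examined for repeats after its count was seen.

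Kcnq1ot1, a long antisense RNA that silences imprinted genes, is a single exon of 93092 bases (chr7:143203458-143296549) with a run of 41 A. It had 93 control, 24 anti-PD-1, 39 KS100 and 119 combination counts, and AZD5363 and MK1775 gave 6 with IgG and 92 with anti-PD-1. The combination pool was at 113 (85.6 to 150) times control and 5.85 (4.05 to 8.63) times the KS100 pool. It overlaps Kcnq1 on the other strand, and the strand setting of the counting is not given, so reads of the 2 genes cannot be told apart. The list of long non-coding RNAs had 2 genes higher and 1 lower of 6 tested. Its summed ratio was 5.48 (4.62 to 6.46), and 1.21 (0.824 to 1.71) without Kcnq1ot1. Malat1, a nuclear non-coding RNA, had 188 control, 39 KS100 and 29 combination counts (13.7, 8.9 to 20.3). Neat1, the RNA scaffold of nuclear paraspeckles, had 1 against 671 (0.132, 0.00334 to 0.738), which was not called.

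The 5 genes that entered through the combination pool alone, named after their values were seen, were Gm29216 (33 counts against 0 in control), Gm4117 (32 against 1), 4930432E11Rik (28 against 0), Gm37954 (20 against 0) and Traf5 (20 against 6). Set against 3 control counts in place of 0, Gm29216 was 974-fold higher, 4930432E11Rik 826-fold and Gm37954 590-fold. Their intervals against the 0 counts began at 748, 629 and 437. In the KS100 pool these 5 had 5, 5, 2, 0 and 1 counts. Traf5, an adaptor of TNF receptors, was the protein-coding gene among them, at 295 (114 to 898) times control. Since they were tested only because they were high, they had to differ.

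Leaving out these 5, mitochondrial, ribosomal protein, Gm and Rik genes, the protein-coding genes furthest above control included long ones. Ankrd12 had 27, 18, 7 and 16 counts in the control, anti-PD-1, KS100 and combination pools (52.5, 26.4 to 101), Uvssa, a factor of transcription-coupled repair, 37, 31, 10 and 17 (40.7, 21.5 to 74.1), and Golgb1, a Golgi tether, 25, 6, 1 and 11 (38.9, 17.3 to 82.1). Atr, the kinase that senses stalled replication forks, had 68, 33, 16 and 15 (19.5, 10.4 to 34.5). Exons of these 4 genes, merged, spanned 13748, 8666, 11862 and 23629 bases. The KS100 pool was also called higher than control for Ankrd12, Uvssa and Atr, at 12.0, 12.5 and 10.9. Over all genes called higher, the median merged exon length was 9163 bases, against 2782 in genes called lower and 4727 in all tested genes. The median span of the gene was 69296, 9581 and 25310 bases in the same order. Genes deep enough to be called lower but not called had a median exon length of 3718 bases and a median span of 15000. A run of 8 or more A in a transcript was present in 80.1% of the genes called higher, 21.5% of those called lower and 43.1% of all tested, and among genes deep enough to be called lower but not called it was 42.2%.

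The same gradient appeared when all nuclear protein-coding genes with at least 20 and under 200 control counts, 6056 in all, were put in order of their longest run of A and divided into 5 equal groups, with no use of calls. The combination pool's summed ratio to control was 0.408 (0.369 to 0.45) in the group with a median run of 5 bases, then 0.636, 1.07, 1.39 and 2.27 (2.17 to 2.36) at 14 bases. With KS100 it went from 0.626 to 2. With AZD5363, MK1775 and IgG, a pool as shallow as the combination pool, it went from 0.753 to 0.965, and with all 3 of AZD5363, MK1775 and anti-PD-1 from 1.01 to 2.21, while the anti-PD-1 pool stayed between 1.04 and 1.09. By exon length the combination pool went from 0.534 to 2.41. Longer transcripts hold longer runs. Within short, middle and long genes the gradient by run of A remained, though exon length still varied within each. From runs of 5 or fewer to 12 or more, the ratio went from 0.406 to 1.58 in the short genes. It went from 0.437 to 1.73 in the middle and 0.565 to 2.79 in the long. In the long genes the median exon length also rose, from 7693 to 10123 bases. A gradient by length likewise remained among genes of like run. From short to long genes the ratio went from 0.559 to 1.30 at runs of 6 or 7. At 8 to 11 it went from 0.795 to 1.89. The separate parts of run and length were not tested. These groups are a description of 1 pool a side, and whether priming inside transcripts, genomic DNA or RNA breakdown took part was not tested.

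**Figure D5:**
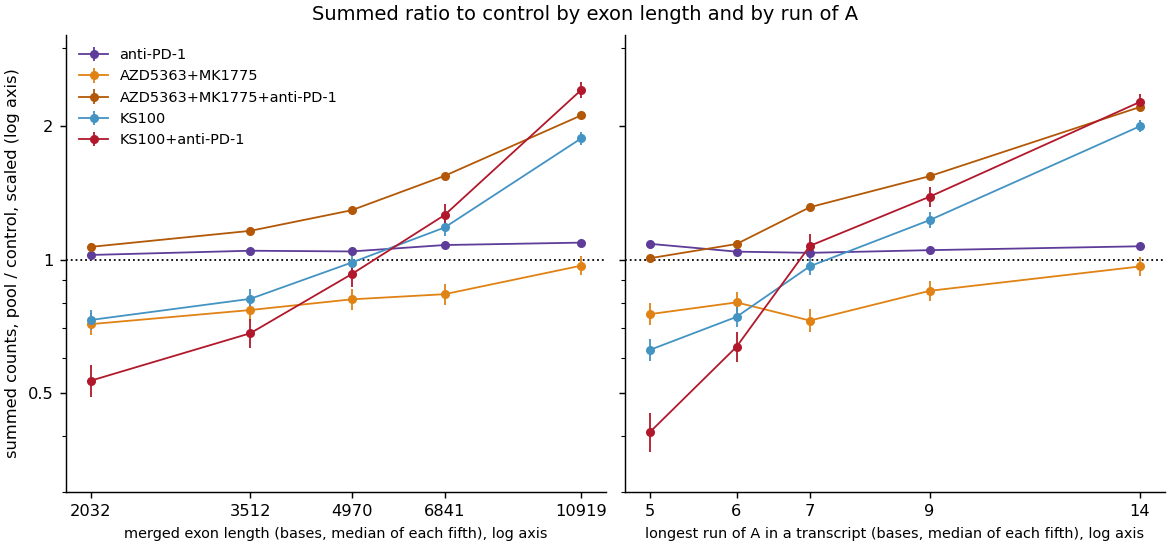
Summed ratio to control (log y axis) of 5 equal groups of nuclear protein-coding genes with at least 20 and under 200 control counts, ordered by exon length (left) and by longest run of A in a transcript (right), with 95% intervals; each x position is the group's median in bases on a log axis. The combination pool goes from 0.534 to 2.41 and from 0.408 to 2.27, while the anti-PD-1 pool stays near 1.

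Against the single treatments, values are given side by side, since these comparisons share the combination pool. Against the anti-PD-1 pool, 6959 genes were tested, 232 (3.33%) were higher and 202 (2.9%) lower (6.24% together), though 416 were lower with library totals and 385 with TMM from all genes. The pigment list stood at 0.214 there, the nuclear respiratory chain at 0.193 and mitochondrially encoded proteins at 13.6. Against the KS100 pool only 209 genes had 20 counts, of which 9 (4.31%) were higher and 71 (34%) lower, 38.3% in either direction, and the summed ratio of the 209 was 0.832 (0.809 to 0.856). Of the 71, 15 were proteins of the large and 14 of the small ribosomal subunit, out of 28 and 25 tested. The KS100 pool had 203 genes with 20 counts and the combination pool 31. All of the 71 except mt-Nd1, mt-Co1, Hsp90ab1, Ldha, Rplp1 and Rps9 were tested through the KS100 pool alone. That filter favours lower calls, so the split between higher and lower cannot be read as a result. The 9, named after their values were seen, were Kcnq1ot1, mt-Nd2, mt-Nd5 and 6 genes with fewer than 20 KS100 counts: Gm26870, Gm29216, Gm4117, 4930432E11Rik, Gm37954 and Traf5. Those 6 were tested against the KS100 pool only because the combination pool was high, so they had to differ. Surf4, a cargo receptor of the endoplasmic reticulum, had 1353, 1045, 30 and 0 counts in the control, anti-PD-1, KS100 and combination pools. It was 1.02 of control in the KS100 pool. With 3 counts in place of the 0, the combination pool was 5.09-fold lower than control and 5.21-fold lower than the KS100 pool. The intervals reached ratios of 0.242 and 0.251. The KS100 pool itself had 358 of 7951 genes (4.5%) higher and 143 (1.8%) lower than control (6.3% together), but 1226 genes deep enough to be called lower, so its counts cannot be read against those of the combination pool.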

How the data were processed

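Per the labels' protocols, 6 libraries of pooled tumour RNA were prepared by oligo-dT priming (QuantSeq 3′ FWD) and sequenced over 151 cycles. The authors deposited raw whole-number counts per Ensembl gene. The submitters' processing notes name bcl2fastq, HISAT2 2.1.0, HTSeq and GRCm38. Which annotation release, strand setting and handling of multiply matching reads were used is not given in the sources used here. Of 43721 rows, 92 name spike-in controls; they hold no count and were dropped. GENCODE M21 gave names, lengths, transcripts and coordinates for 42548 of 43629 genes.

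Depth was scaled with TMM (edgeR 4.0.16, R 4.3.3) on the 4912 genes kept by filterByExpr. Ratios of counts carry 95% exact conditional (Clopper-Pearson) intervals, computed with SciPy 1.17.1; log2 ratios use a prior count of 2. No count model was fitted and no p-value computed, as each treatment is 1 pool. The rule was tested on simulated Poisson counts drawn from the control means, with the scaling known. The simulation held no background counts and no repeated reads, so it does not cover those features of these data. Alternatives were library totals, DESeq2 1.42.0 size factors, other TMM fits, nuclear protein-coding totals, count minimums and stricter rules.

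The comparison, the 47 gene lists and the tests were chosen with earlier results of these data known. Genes named are the 15 furthest in each direction by interval bound (leaving out mitochondrial, ribosomal protein, Gm and Rik genes), the 10 with most combination counts, called or abundant list members, the treatments' targets, and the 10 highest and 10 lowest ratios with 20 counts in both pools; of these the text describes a selection. Runs of A, lengths the repeat in Gm26870 and values without Gm26870 or Kcnq1ot1 were examined after seeing the data. Counts carry no molecular identifiers, so reads are not independent molecules. Results for some list members are not reported here.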

Additional observations from a re-analysis of the deposited data

How the results depend on the processing

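Against control, 365 genes were higher and 210 lower. Library totals gave 243 and 398, TMM from the 2 pools alone 90 and 1247, and TMM from all genes 248 and 386. A minimum of 50 counts left 150 higher, no minimum gave 4678 higher, and 20 counts in both pools gave 13 and 6. A ratio of 3 with the interval beyond 2-fold left 93 lower, and a 99% interval gave 211 and 115. The median log2 ratio (-2.48) became -2.66 with library totals, -2.66 with TMM from all genes, -2.90 with TMM from the 2 pools, -2.29 with nuclear protein-coding totals, -0.33 with no minimum and 1.11 with 20 counts in both pools. Genes deep enough to be called lower (504) numbered 819, 1844 and 804 with library totals, TMM from the 2 pools and TMM from all genes. Against the anti-PD-1 pool, the 202 lower genes became 416 with library totals and 385 with TMM from all genes. The share of higher genes with a run of 8 or more A was 86.7% with TMM from the 2 pools. That scaling turned fibroblasts and matrix to 0.891 and endothelium to 0.676. Of 227 named gene ratios, calls were lost in 10 with DESeq2 size factors, 6 with library totals, 6 with TMM from all genes, 15 with TMM from the 2 pools and 22 with nuclear protein-coding totals. Calls were gained in 16 with library totals, 15 with TMM from all genes and 39 with TMM from the 2 pools. The cause of these changes was not tested beyond the shift that each scaling applies to every gene. Depth limits lower calls to genes with 532 or more control counts. Without the member with most counts, keratinocytes and photoreceptors had no finite ratio. No paired analysis was possible because each treatment is 1 pool.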
